A study of Drosophila melanogaster with 18 samples.

Results

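The cytosolic ribosome of Drosophila egg chambers was followed through its protein genes in females whose follicle cells had an altered epidermal growth factor receptor (EGFR) or bone morphogenetic protein (BMP) pathway. The members were all probe sets that the platform's probe-to-gene table assigns to a single gene with a symbol that begins with RpL or RpS followed by a digit or by P, in that letter case, which leaves out the mitochondrial ribosomal proteins. The rule used names alone and gave 37 probe sets for 37 genes, of 13966 probe sets tested. They comprise 15 genes of the small subunit, 15 of the large subunit, the 3 P proteins of the stalk and 4 genes whose symbols end in "-like". NCBI's gene table holds 92 protein-coding genes that fit the same pattern, and the other genes were not analysed here. A further 2 probe sets list such a gene beside another gene and were not counted as members.

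Each ribosome holds 1 copy of most of these proteins, so the genes are expressed together at high level in growing cells. The small subunit reads the messenger RNA, the large subunit joins the amino acids, and the stalk on the large subunit recruits the elongation factors. In an egg chamber the nurse cells supply the oocyte with ribosomes that the embryo later uses, while the somatic follicle cells need their own for the synthesis of yolk and eggshell proteins. Loss of a single copy of many of these genes gives the Minute phenotype of slow growth and thin bristles.

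The samples were total RNA of hand-dissected egg chambers of stages 9 to 10 from females aged 6 to 8 days, given yeast for 24 h at 23 °C before dissection, with 3 arrays in each of 6 groups and 100 egg chambers for each array. Genotypes were CY2-GAL4, UAS-lambda-Top (EGFR gain of function, a constitutively active receptor), CY2-GAL4, UAS-dnEGFR (EGFR loss of function, a dominant-negative receptor), CY2-GAL4, UAS-tkv* (BMP gain of function, an activated type I receptor) and OreR, the wild type A of round 1. Round 2 held CY2-GAL4, UAS-Dad (BMP loss of function, an inhibitory Smad) and a second set of OreR arrays, wild type B. CY2-GAL4 drives transgenes in follicle cells, so a change in the follicle cells is diluted by germline RNA in each sample, and fewer cells of a type and less RNA per cell cannot be told apart. No CY2-GAL4 flies without a UAS transgene were analysed here, and in a comparison with OreR the strain, the driver and the pathway cannot be told apart. The 300 egg chambers of a genotype were divided into its 3 replicates, and nothing in the labels ties a replicate to separate flies, so the p-values reflect a spread that may be technical only.

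Of the fixed markers, 7 of 9 follicle cell genes and 9 of 9 germline genes were measured, with the yolk gene Yp1 at 12.72 ± 0.03 and the germ plasm gene osk at 9.89 ± 0.15 in wild type A (log2 values, SD, n = 3). The driven genes rose at 1 probe set each by limma: Egfr in EGFR gain (1.87 ± 0.16, SE, adjusted p = 2.69e-05), tkv in BMP gain (1.81 ± 0.18, 6.61e-05) and Dad in BMP loss (4.39 ± 0.66, 0.0031). A second probe set was not called, for Egfr in EGFR gain (-0.12, 0.882) or for tkv in BMP gain (0.16, 0.618). In EGFR loss the Egfr probe sets differed by -0.32 and 0.03 (adjusted p of 0.349 and 0.967). Actin control probe sets differed by 2.89 between their 3′ and 5′ ends in EGFR loss replicate 3, by 1.37 and 1.63 in EGFR gain replicates 1 and 3, and by 0.85 to 1.28 in the other arrays. A larger difference is a sign of shortened RNA or incomplete labelling, so some results that rest on these arrays are also given without them. Others, such as the counts of members without overlap and the sums of marker genes, are given with all arrays only.

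The members fell into 3 ranges of brightness, given here as log2 values averaged over the 18 arrays. A probe set's brightness depends on its probes as well as on the RNA, so the order of the genes is that of the array and not of their transcripts. The 27 brightest lay between 10.2 for RpL28 and 12.2 for RpS20, and all 27 were among the 140 probe sets at or above the 99th percentile of the array (10.2). RpS29 followed at 8.73, and RpL24-like, RpLP0-like, RpL7-like and RpL37-2 lay between 6.57 and 7.89. The remaining 5, RpS10a, RpS28a, RpS19b, RpL22-like and RpL10Aa, lay between 0.36 and 2.68, below the median probe set of the array (4.24). The 4 dimmest of these had means under the 25th percentile of all probe sets (1.81).

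**Figure D1:**
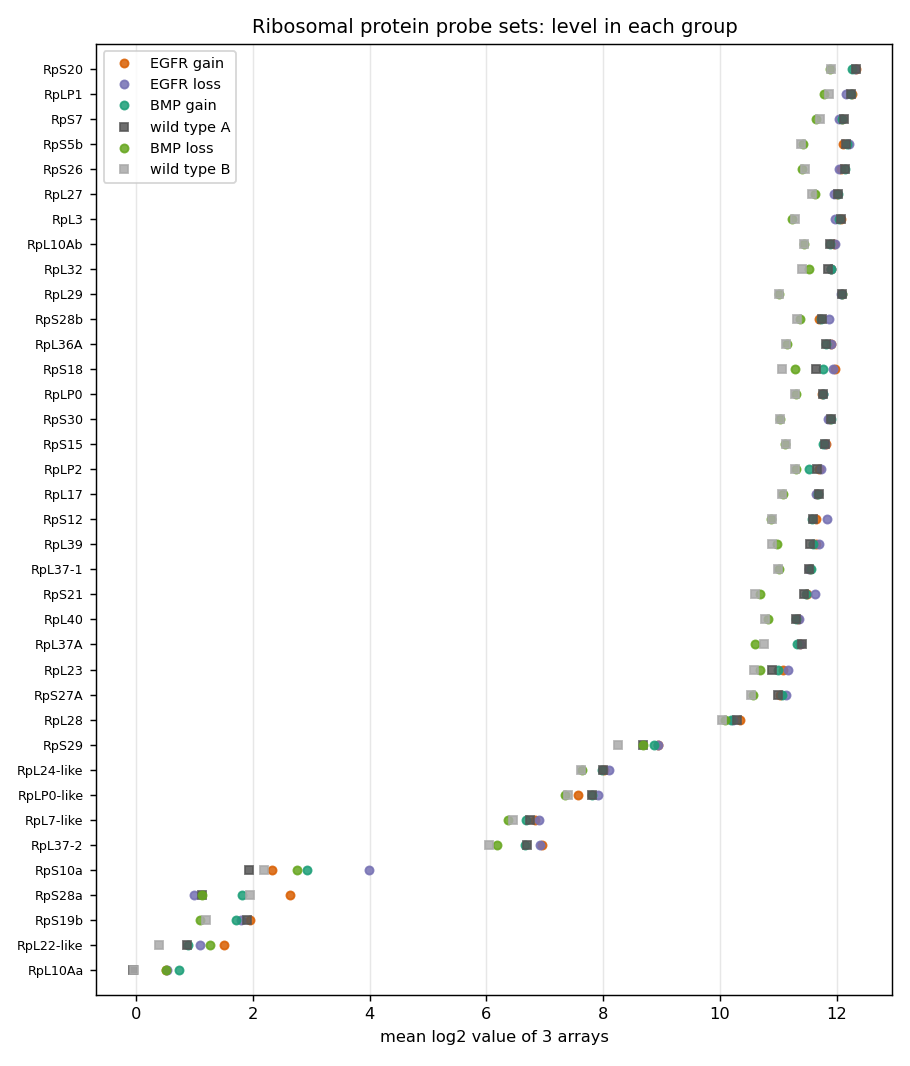
Mean log2 value of 3 arrays (horizontal axis) for the 37 ribosomal protein probe sets, ordered by brightness, by group. Round 1 held EGFR gain, EGFR loss, BMP gain with wild type A, and round 2 held BMP loss with wild type B. The 27 brightest lie at or above 10 on average, and 5 copies of the gene family lie between 0.36 and 2.68.

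Among the bright members the spread between replicates was small. The 27 probe sets had a median within-group SD of 0.05 log2 units, with a range of 0.02 to 0.11, against a median of 0.07 for the 135 other probe sets with a mean of at least 10 and 0.29 for all probe sets tested. RpLP0, which encodes the stalk protein that anchors the others, had a within-group SD of 0.0215, the lowest of all 13966 probe sets. The 5 dim members had SDs between 0.51 and 1.34. The highest value of an array lay between 12.5 and 13.3 and members reached 12.4. Array signals near the top of their range can be compressed, and whether these are was not tested.

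**Figure D2:**
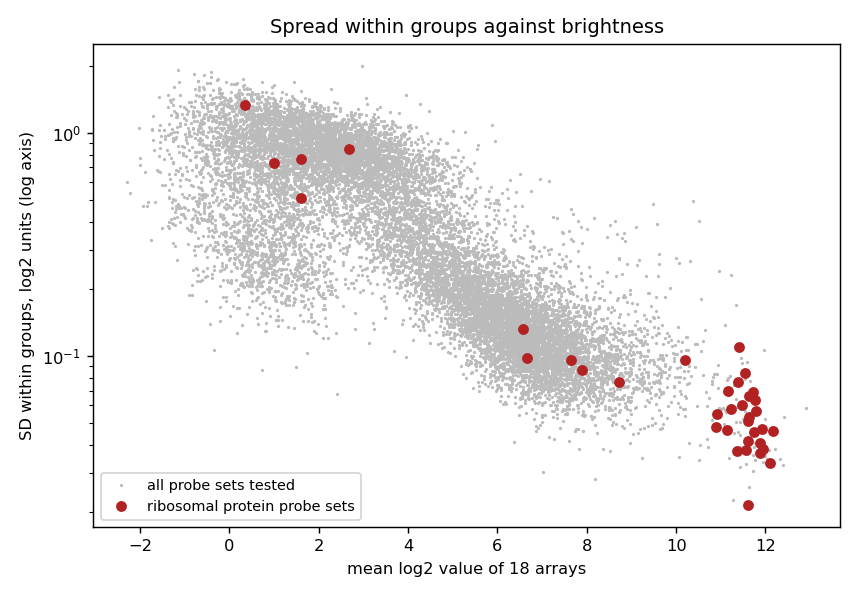
Within-group SD (log axis, log2 units) against the mean log2 value of the 18 arrays for all 13966 probe sets tested (grey) and the 37 members (red). Bright members sit at the low end of the spread, with RpLP0 lowest at 0.0215, and the 5 dim members have SDs of 0.51 to 1.34.

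Across the 4 perturbations the ribosomal protein genes changed little as a group. limma called 1 member in EGFR gain, 1 in EGFR loss, none in BMP gain and 1 in BMP loss (Benjamini-Hochberg adjusted p under 0.05 over all probe sets). That is 2.7% of the members where 1 was called, against 2.81%, 3.17% and 2.29% of all probe sets in EGFR gain, EGFR loss and BMP loss, and 0 against 2.39% in BMP gain. All 3 calls were rises, as were those of 1.52%, 1.69% and 1.12% of all probe sets. The shares of members called were thus near those of the whole array. Among the 27 brightest members limma called 3.7%, 3.7%, 0% and 0% in EGFR gain, EGFR loss, BMP gain and BMP loss. The shares for the 135 other probe sets of that brightness were 3.7%, 8.15%, 5.19% and 3.7%. At an unadjusted p under 0.05 there were 6 members in EGFR gain, 7 in EGFR loss, 1 in BMP gain and 3 in BMP loss. These are 16.2%, 18.9%, 2.7% and 8.11% of the members, against 13.7%, 16.7%, 11.3% and 13.4% of all probe sets. The median change of the 37 members was 0.03 in EGFR gain, 0.07 in EGFR loss, 0.00 in BMP gain and 0.02 in BMP loss on the log2 scale, where the medians of all probe sets were all 0.00. Under other settings the number of called members ran from 0 to 4, as given in the part on processing.

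For the 27 brightest members the differences were smaller than 0.1 log2 units in 24 cases in EGFR gain, 19 in EGFR loss, 25 in BMP gain and 23 in BMP loss. The 95% intervals of those not called reached at most 1.25-fold higher and 1.15-fold lower in EGFR gain, 1.37-fold higher and 1.19-fold lower in EGFR loss, 1.19-fold higher and 1.25-fold lower in BMP gain, and 1.29-fold higher and 1.21-fold lower in BMP loss (limma, not adjusted for the number of genes). The median size of the difference, regardless of direction, was 0.04, 0.07, 0.03 and 0.05 in the same order of groups, against 0.07, 0.09, 0.06 and 0.05 for the 135 other probe sets of that brightness.

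**Figure D3:**
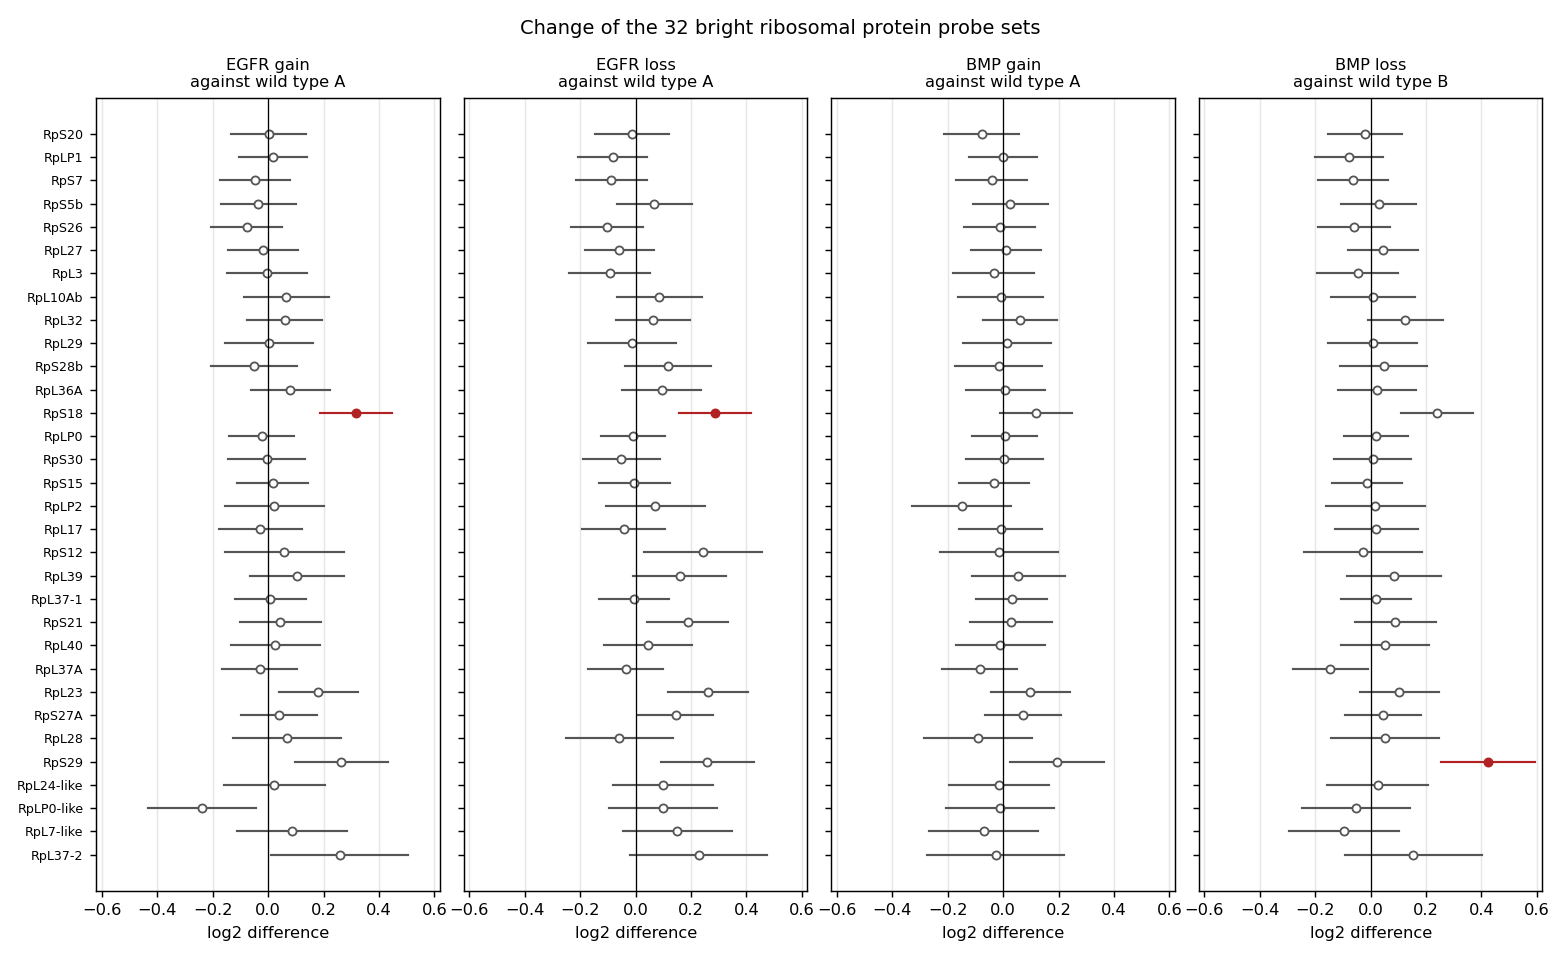
Log2 difference from the wild type of the same round, with unadjusted 95% intervals from limma, for the 32 members above the array's median brightness in EGFR gain, EGFR loss, BMP gain and BMP loss. Filled red points passed the adjusted threshold: RpS18 in EGFR gain and EGFR loss and RpS29 in BMP loss.

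By subunit, none of the medians among the bright members lay further from 0 than 0.07. For the 11 bright small subunit genes they were 0.00 in EGFR gain, 0.07 in EGFR loss, -0.01 in BMP gain and 0.01 in BMP loss. For the 13 bright large subunit genes they were 0.03, -0.01, 0.01 and 0.02. In each subunit some genes lay above and others below their wild type, as shown by 6 of 11 small subunit genes and 6 of 13 large subunit genes above 0 in EGFR loss. In BMP loss 11 of 13 large subunit genes were above 0, none of them called.

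RpS18, a protein of the head of the small subunit, was the 1 member called in more than 1 comparison with wild type, both EGFR perturbations, against 2.36% of all probe sets called in 2 or more. It had 11.98, 11.97 and 11.96 in EGFR gain, 11.90, 11.93 and 11.97 in EGFR loss and 11.83, 11.75 and 11.73 in BMP gain, against 11.63, 11.62 and 11.70 in wild type A (log2 values by array). In round 2 it had 11.31, 11.26 and 11.31 in BMP loss, against 10.99, 11.09 and 11.08 in wild type B. Every array of each CY2-GAL4 genotype thus lay above every wild type array of its round. The difference was 0.32 ± 0.06 in EGFR gain (SE, 1.25-fold, adjusted p = 0.0117 by limma) and 0.29 ± 0.06 in EGFR loss (1.22-fold, 0.0218), so RpS18 rose in both. It was 0.12 ± 0.06 in BMP gain (0.507) and 0.24 ± 0.06 in BMP loss (0.0612), which missed the threshold.

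The calls of RpS18 depended on the setting. Over 13 other settings its adjusted p by limma ran from 6.75e-05 to 0.214 in EGFR gain and from 0.000181 to 0.38 in EGFR loss. The lowest values came from the intensity trend with robust moderation. In BMP loss RpS18 was called under 4 of 13 other settings. In EGFR gain the call ended without wild type A replicate 2 (0.0565) and with EGFR gain replicates 1 and 3 both left out (difference 0.32, adjusted p = 0.183, from a single EGFR gain array assumed to vary like the other groups). In EGFR loss it ended without wild type A replicate 1 (0.0712), wild type A replicate 2 (0.0859), EGFR loss replicate 2 (0.0553) or EGFR loss replicate 3 (0.27 ± 0.07, 0.0524), and under quantile normalization of the 18 arrays (0.24, 0.0522). Without any single array the difference stayed between 0.30 and 0.34 in EGFR gain and between 0.27 and 0.31 in EGFR loss. When only the 6 arrays compared were fitted, the adjusted p was 0.214 in EGFR gain and 0.380 in EGFR loss.

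RpS29, a small zinc-binding protein of the same subunit, rose in BMP loss. It had 8.65, 8.61 and 8.77 in BMP loss, against 8.22, 8.29 and 8.24 in wild type B. The difference was 0.42 ± 0.08 (SE, 1.34-fold, adjusted p = 0.0111 by limma). In round 1 it had 8.93, 8.89 and 9.02 in EGFR gain, 8.79, 8.99 and 9.04 in EGFR loss and 8.82, 8.86 and 8.95 in BMP gain, against 8.69, 8.71 and 8.65 in wild type A. Like RpS18, it was above its wild type on every array of the 4 perturbations. The differences of round 1 did not pass the threshold, at 0.26 ± 0.08 in EGFR gain (0.108), 0.26 ± 0.08 in EGFR loss (0.101) and 0.19 ± 0.08 in BMP gain (0.333). Without EGFR loss replicate 3 that in EGFR loss was 0.21 (adjusted p = 0.242 by limma). The call in BMP loss ended without wild type B replicate 1 (0.0501) or BMP loss replicate 3 (0.0578), and was lost in a fit to the 6 arrays of round 2 (0.163).

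RpS18 and RpS29 were the 2 members whose arrays lay above wild type without overlap in all 4 comparisons, as did 1.19% of all probe sets. Wild type A serves all 3 comparisons of round 1, so these are not independent of each other. Between groups that share the driver neither gene was called. RpS18 differed by 0.03 ± 0.06 between EGFR gain and EGFR loss (adjusted p = 0.886), by -0.20 ± 0.06 between BMP gain and EGFR gain (0.181) and by -0.17 ± 0.06 between BMP gain and EGFR loss (0.197). RpS29 differed by 0.01, -0.07 and -0.07 (0.986, 0.834 and 0.754). The BMP gain arrays of RpS18 (11.73 to 11.83) nonetheless lay below all those of EGFR gain (11.96 to 11.98) and EGFR loss (11.90 to 11.97).

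**Figure D4:**
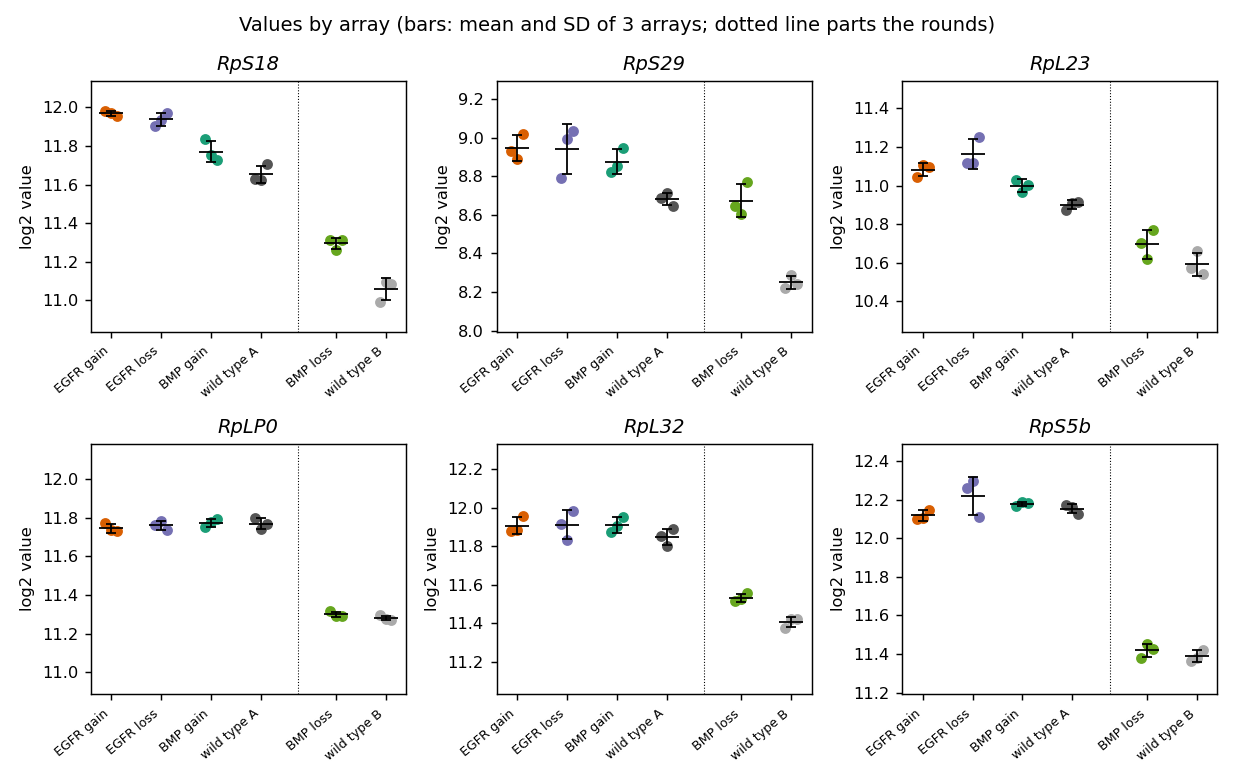
Log2 value on each array for RpS18, RpS29, RpL23, RpLP0, RpL32 and RpS5b, with the mean and SD of 3 arrays; each panel spans 1.3 log2 units. RpS18 and RpS29 lie above the wild type of their round in every perturbation, while RpLP0 stays between 11.73 and 11.80 throughout round 1 and between 11.27 and 11.32 throughout round 2.

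RpL23, a large subunit protein at the interface with the small subunit, came next. It had 11.04, 11.11 and 11.09 in EGFR gain, 11.12, 11.12 and 11.25 in EGFR loss and 11.03, 10.96 and 11.00 in BMP gain, against 10.87, 10.91 and 10.92 in wild type A. These groups did not overlap with wild type A, while in round 2 BMP loss had 10.70, 10.62 and 10.77 against 10.57, 10.66 and 10.54 in wild type B, and the groups overlapped. The difference in EGFR loss, 0.26 ± 0.07, just missed the threshold (adjusted p = 0.0518, and 0.132 at 0.22 without EGFR loss replicate 3). In EGFR gain it was 0.18 ± 0.07 (0.213).

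In EGFR loss 13 of the 37 members had arrays that did not overlap with wild type A, 9 of them higher, against 21.5% and 10.8% of all probe sets. The numbers were 6 and 5 in EGFR gain (21.3% and 10.7% of all), 6 and 4 in BMP gain (20.5% and 10.2%) and 8 and 5 in BMP loss (21% and 10.4%). EGFR loss was thus the perturbation with most such members, yet only RpS18 was called there. RpS12 had 11.68, 12.07 and 11.75 in EGFR loss against 11.50, 11.56 and 11.71 in wild type A, a difference of 0.24 ± 0.10 (adjusted p = 0.230). EGFR loss replicate 2 stood highest, and the groups overlapped. RpS21, a small subunit protein, had 11.54, 11.67 and 11.70 in EGFR loss against 11.36, 11.45 and 11.53 in wild type A, a difference of 0.19 ± 0.07 (0.180). Without EGFR loss replicate 3 the differences were 0.28 for RpS12 (adjusted p = 0.236 by limma) and 0.16 for RpS21 (0.334). RpS26, another small subunit protein, had means below that of wild type A in both EGFR groups, at -0.08 ± 0.06 in EGFR gain (0.647) and -0.10 ± 0.06 in EGFR loss (0.415).

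The members' share of all signal is the sum of their linear values over that of all probe sets on an array. It was 6.55%, 6.49% and 6.58% in EGFR gain, 6.54%, 6.57% and 6.81% in EGFR loss and 6.46%, 6.43% and 6.47% in BMP gain, against 6.38%, 6.37% and 6.49% in wild type A. In round 2 it was 6.22%, 6.11% and 6.28% in BMP loss, against 6.12%, 6.14% and 6.14% in wild type B. The highest share stood in EGFR loss replicate 3, the array with the largest actin difference. Without that array the median change of the 37 members in EGFR loss was 0.03 in place of 0.07, and that of the 27 bright members was 0.00 in both cases. The part of RNA quality in the members' differences was not tested beyond leaving these arrays out.

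**Figure D5:**
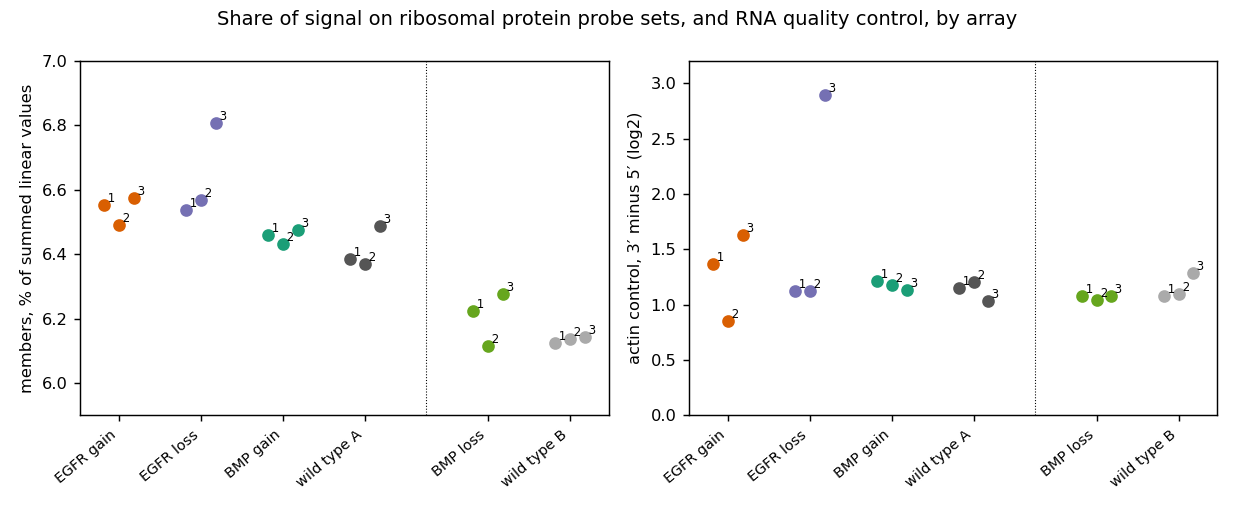
Left, the 37 members' share of the summed linear values of each array in percent (axis from 5.9 to 7.0); right, the 3′ minus 5′ difference of the actin control (log2). Numbers are replicates. EGFR loss replicate 3 is highest on both, at 6.81% and 2.89.

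None of the stalk proteins RpLP0, RpLP1 and RpLP2 was called. RpLP0 had 11.77, 11.73 and 11.73 in EGFR gain, 11.76, 11.78 and 11.74 in EGFR loss and 11.75, 11.78 and 11.80 in BMP gain, against 11.80, 11.74 and 11.77 in wild type A. The groups overlapped, with differences of -0.02 (95% interval -0.14 to 0.09), -0.01 (-0.13 to 0.11) and 0.00 (-0.11 to 0.12). In BMP loss RpLP0 differed by 0.02 (-0.10 to 0.13) from wild type B. RpLP1 differed by 0.02, -0.08, 0.00 and -0.08 in EGFR gain, EGFR loss, BMP gain and BMP loss, with adjusted p values of 0.507 or more. RpLP2, with a within-group SD of 0.08, varied more between replicates and had the largest difference of the stalk genes, with 11.52, 11.55 and 11.49 in BMP gain against 11.70, 11.71 and 11.60 in wild type A. That difference, -0.15 ± 0.08, was not called (adjusted p = 0.567).

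RpL32, a large subunit gene widely used as a reference in fly RNA measurements, was above wild type by 0.06 ± 0.06 in each perturbation of round 1, EGFR gain, EGFR loss and BMP gain, with no call (adjusted p of 0.774, 0.674 and 0.826). In round 2 it had 11.51, 11.52 and 11.56 in BMP loss against 11.38, 11.42 and 11.42 in wild type B. These arrays did not overlap, and the difference of 0.13 (95% interval -0.01 to 0.26) was not called (0.413). The genes RpL40 and RpS27A are each translated as a fusion of a ribosomal protein to ubiquitin. RpL40 differed from wild type by 0.03, 0.04, -0.01 and 0.05 in EGFR gain, EGFR loss, BMP gain and BMP loss. RpS27A differed by 0.04, 0.14, 0.07 and 0.05 in the same order. Neither was called (adjusted p of 0.271 or more by limma). RpL37A, of the large subunit, had the largest difference below wild type in BMP loss among the 27 bright members, with 10.62, 10.56 and 10.64 against 10.73, 10.79 and 10.74 in wild type B. The difference of -0.15 ± 0.06 was not called (adjusted p = 0.324).

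Flies carry duplicate copies of several ribosomal protein genes, 1 expressed widely and the other in a restricted set of tissues, often the gonads. RpS5b, the copy known for expression in the ovary, was among the brightest members. It had 12.10, 12.11 and 12.15 in EGFR gain, 12.26, 12.30 and 12.11 in EGFR loss and 12.17, 12.19 and 12.19 in BMP gain, against 12.17, 12.16 and 12.13 in wild type A. Its differences were -0.04, 0.07 and 0.03, and 0.03 in BMP loss, with adjusted p values of 0.652 or more, so no change was detected. Its counterpart RpS5a was not analysed here, and how far a probe set reads the other copy of a pair is not given in the sources used here.

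Both genes were measured for 3 duplicate pairs and for RpLP0 and RpLP0-like, which share a name. RpL10Ab and RpL10Aa stood at 11.89 ± 0.03 and -0.07 ± 1.52 in wild type A (log2 values, SD, n = 3), RpL37-1 and RpL37-2 at 11.53 ± 0.04 and 6.69 ± 0.08, RpS28b and RpS28a at 11.75 ± 0.04 and 1.12 ± 0.23, and RpLP0 and RpLP0-like at 11.77 ± 0.03 and 7.82 ± 0.06. The second-named gene of each also stood dimmer in the 4 perturbations, a description of the probe sets and not of RNA amounts. RpL37-2 had 7.02, 7.12 and 6.70 in EGFR gain and 6.96, 7.07 and 6.72 in EGFR loss, against 6.79, 6.63 and 6.66 in wild type A. Both groups overlapped with wild type A, with differences of 0.26 ± 0.11 (adjusted p = 0.335) and 0.23 ± 0.11 (0.340). The bright copy RpL37-1 differed by 0.01 and -0.01.

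RpLP0-like, RpL24-like and RpL7-like resemble factors that assemble the large subunit in yeast rather than proteins of the finished ribosome. RpLP0-like had 7.51, 7.50 and 7.71 in EGFR gain and 7.75, 7.92 and 8.07 in EGFR loss, against 7.76, 7.87 and 7.83 in wild type A. EGFR gain lay below the other groups of round 1 without overlap. The difference from wild type A was -0.24 ± 0.09 (adjusted p = 0.225), and that between EGFR gain and EGFR loss, which share the driver, was -0.34 ± 0.09 (0.0841), neither of them called. RpL24-like and RpL7-like differed from wild type by -0.10 to 0.15 across the 4 perturbations.

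The 5 dim members are copies of which RpL22-like, RpL10Aa, RpS10a and RpS28a are known for expression in the testis and RpS19b for expression in the germline. Their arrays scattered by more than most of their differences. RpS10a had 4.28, 4.07 and 3.60 in EGFR loss and 1.30, 3.15 and 2.50 in EGFR gain, against 3.51, 0.65 and 1.65 in wild type A. EGFR loss lay above wild type A without overlap, by 2.04 ± 0.66 (adjusted p = 0.126, and 0.175 at 2.24 without EGFR loss replicate 3). The difference passed the threshold only without wild type A replicate 1 (2.83, 0.0314). RpS10a differed by 0.99 ± 0.66 in BMP gain (0.687) and by 0.56 ± 0.66 in BMP loss (0.804).

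RpS28a had 3.85, 2.12 and 1.95 in EGFR gain, against 0.94, 1.03 and 1.38 in wild type A, without overlap. The difference of 1.52 ± 0.59 was not called (adjusted p = 0.253). It stood at -0.12 in EGFR loss, 0.69 in BMP gain and -0.82 in BMP loss, where wild type B replicate 3 had 3.55 and the other wild type B arrays 1.34 and 0.94. RpL22-like differed by 0.63 ± 0.57 in EGFR gain, with a single high array at 2.96, and by 0.87 ± 0.57 in BMP loss, with a single high array at 2.50 (0.723 and 0.584). RpL10Aa differed by 0.54 to 0.79 in the 4 perturbations, each with an SE of 1.04, and RpS19b by -0.18 to 0.05. Spermatogenesis markers, all 7 measured, had summed linear values of 53.1 to 66.7 in EGFR gain, 61.7 to 68.8 in EGFR loss and 47.5 to 74.3 in BMP gain, against 34.9 to 39.2 in wild type A. In round 2 they summed to 30.9 to 36.9 in BMP loss, against 31.0 to 55.6 in wild type B. Of the 7, Mst98Ca was the 1 called, and it rose in EGFR gain and EGFR loss (by 1.49 ± 0.27, adjusted p = 0.009, and 1.09 ± 0.27, 0.0489). Without EGFR gain replicates 1 and 3 its difference in EGFR gain was not called (1.16, 0.274), and without EGFR loss replicate 3 that in EGFR loss was called (1.47, 0.00232). These sums lie far below those of the follicle cell markers, and their part in the dim members' differences was not tested.

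Comparisons among the 3 perturbations of round 1 involve CY2-GAL4 flies on both sides and leave OreR out. limma called none of the 37 members between EGFR gain and EGFR loss, between BMP gain and EGFR gain, or between BMP gain and EGFR loss, against 2.1%, 1.27% and 2% of all probe sets. At an unadjusted p under 0.05 there were 4, 3 and 7 members, or 10.8%, 8.11% and 18.9%, against 13.5%, 11.3% and 15.5% of all probe sets. The 7 of the last comparison had lower means in BMP gain, RpS12 by -0.26 ± 0.10 (adjusted p = 0.219) and RpLP2 by -0.22 ± 0.08 (0.212) among them. Between the response to BMP gain and that to BMP loss, each taken against its own wild type, no member was called, against 0.43% of all probe sets, and none had an unadjusted p under 0.05, against 7.97% of all probe sets. Its uncertainty is wider, with a median SE of 0.09 for the 32 members above the array's median, against 0.07 in the other comparisons.

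Other genes of translation were taken from lists outside the symbol rule. Rack1, a scaffold protein of the small subunit with another style of name, stood above wild type by 0.17 ± 0.06 in EGFR gain, 0.10 in EGFR loss, 0.12 in BMP gain and 0.08 in BMP loss, with adjusted p values of 0.184 or more. Of 4 measured elongation factor genes and 15 measured genes of the nucleolus and ribosome assembly, limma called none in any of the 4 comparisons with wild type. At an unadjusted p under 0.05 there were 1, 1, 1 and 0 elongation factor genes and 0, 1, 2 and 4 assembly genes in EGFR gain, EGFR loss, BMP gain and BMP loss. The shares of all probe sets were 13.7%, 16.7%, 11.3% and 13.4%. Median changes of the assembly genes were -0.001, 0.021, 0.003 and -0.105 in the same order. Their summed linear values were 3441 to 3547 in BMP loss, against 3720 to 3866 in wild type B, and overlapped with wild type A in round 1. Whether this list differed as a whole was not tested. Of 10 measured regulators of growth and of ribosomal protein genes, foxo, a transcription factor restrained by insulin signalling, fell in EGFR loss (4.26 ± 0.55 against 5.19 ± 0.10, a change of -0.93 ± 0.22, adjusted p = 0.0389), and no other was called. Without EGFR loss replicate 3 the change of foxo was -0.63 and its call ended (0.0794). M1BP and Trf2, which act at ribosomal protein promoters, differed there by -0.29 and -0.34 without a call.

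Of 64 mitochondrial ribosomal protein genes, mRpL47 rose and mRpS29 fell in EGFR gain (0.71 ± 0.10, adjusted p = 0.00126, and -0.41 ± 0.10, 0.0372). In EGFR loss 4 rose, mRpL14 by 0.57 ± 0.11 (0.0123) and mRpL21 by 0.53 ± 0.12 (0.0278) among them, and none fell. mRpL47 also rose in BMP gain (0.46 ± 0.10, 0.0201), and in BMP loss limma called none. Of all probe sets 2.81%, 3.17%, 2.39% and 2.29% were called in EGFR gain, EGFR loss, BMP gain and BMP loss. At an unadjusted p under 0.05 there were 9, 23, 9 and 7 of the 64 genes in the same order. The shares of all probe sets at that threshold were 13.7%, 16.7%, 11.3% and 13.4%. The count of 23 is not given here without EGFR loss replicate 3. Without EGFR loss replicate 3 there were 3 rises in EGFR loss, and of the original 4 mRpL14 stayed called (0.47, 0.0424). Without EGFR gain replicates 1 and 3 mRpL47 stayed called in EGFR gain (0.76, 0.0209) and mRpS29 did not (-0.31, 0.493). The median change of this list was 0.01, 0.15, -0.01 and 0.03 in EGFR gain, EGFR loss, BMP gain and BMP loss. With EGFR loss replicate 3 left out it remained 0.15 there, against 0.03 for the 37 cytosolic members. The difference between both lists was not tested.

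Markers of other tissues also differed in EGFR loss. Summed linear values were 107 to 192 there against 45.4 to 72.5 in wild type A for 4 fat body genes, 2 of which rose, and 210.5 to 346 against 139.9 to 185 for 8 muscle genes, 2 of which rose. Follicle cell markers summed to 27864 to 29535 in EGFR loss against 34050 to 35614 in wild type A, and 3 of 7 fell by the adjusted threshold, the yolk protein genes Yp1, Yp2 and Yp3. Germline markers summed to 3899 to 4395 against 4323 to 4844, and 2 of 9, osk and piwi, fell by that threshold. Without EGFR loss replicate 3 the 3 yolk protein genes stayed called, as did piwi of the germline genes and Prm of the muscle genes, while no fat body gene was called. Follicle cell sums also lay apart from wild type in BMP gain (36176 to 37432, higher) and in BMP loss (18948 to 19517, against 20738 to 21478 in wild type B). In EGFR gain they overlapped (33500 to 34695). Muscle sums were 102 to 135 in EGFR gain, below wild type A, and overlapped with wild type in both BMP groups. In the other comparisons psd fell in EGFR gain, Yp3 rose in BMP gain and Yp1 fell in BMP loss among the follicle cell markers, and piwi fell in EGFR gain and BMP gain among the germline markers. Without EGFR gain replicates 1 and 3 neither psd nor piwi was called in EGFR gain (0.142 and 0.239). Of 4 hemocyte markers limma called none, with 1 at an unadjusted p under 0.05, in BMP loss. The part of these differences in the members' values was not tested.

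The 2 rounds differed in level, which bears on any reading across them. The 27 bright members stood 0.25 to 1.08 log2 units higher in wild type A than in wild type B, with a median of 0.54, against 0.44 for all probe sets and 0.59 for the 135 other bright probe sets. Among these 27 members RpL29 had the largest such gap, at 1.08, and RpL28 the smallest, at 0.25. Round and normalization cannot be told apart here. Apart from this gap between the wild types, no member was compared across rounds other than through its own wild type.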

How the data were processed

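The authors' deposited table holds log2 values of 14010 probe sets on 18 Affymetrix arrays, of which 44 are controls. For software, affy is the one name in the submitters' processing notes, and background correction, normalization and summary method are not given in the sources used here. Array medians were 4.44 to 4.51 in round 1 and 4.02 to 4.04 in round 2. Values were used as deposited, without detection calls, and the number of arrays limits precision.

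limma 3.58.1 in R 4.3.3 was fitted to 13966 probe sets as 6 group means over all 18 arrays (12 residual degrees of freedom, prior 1.31), with Benjamini-Hochberg adjustment over all probe sets and calls under 0.05. The procedure was tested on simulated data with planted changes, for the 4 comparisons with wild type. It recovered 2% to 8% of changes of 0.25 log2 units and 48% to 64% of changes of 0.5. Changes of 0.25 were thus mostly missed there. These shares are not given for bright probe sets alone. The 27 brightest members had a median within-group SD of 0.05, against 0.29 for all probe sets, so the shares need not hold for them. The platform table gives 12443 probe sets 1 gene, 327 several and 1196 none, and other lists used the brightest probe set of a gene.

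The members, lists and alternatives were chosen with earlier results of these data known. By rule the text names the 5 largest called changes in each direction, members called in 2 or more comparisons, the 2 most changed in each direction, the stalk genes, RpL32, duplicated genes and up to 3 called genes of each other list. RpL23, RpS12, RpS21, RpS26, RpS20, RpL28, RpL29, RpL40, RpS27A, RpL7-like, M1BP, Trf2 and Rack1 lie outside that rule at some places and were chosen after their values were seen. Alternatives were fits to fewer arrays, an intensity trend, array weights, a brightness filter, quantile normalization, median centring, a replicate block, 1 probe set per gene and arrays left out.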

Additional observations from a re-analysis of the deposited data

How the results depend on the processing

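No called member change reversed under an alternative, and 138 of 148 member differences from wild type were not called under any setting. Fits to the arrays of the groups compared alone called 0 members in EGFR gain, EGFR loss and BMP loss, where 1 was called in each, while the calls over all probe sets were 62, 28 and 55 in place of 392, 443 and 320. The intensity trend with robust moderation called 3 in EGFR gain, 4 in EGFR loss, 2 in BMP loss and 1 in each comparison among perturbations of round 1, where none was called, with 588, 725 and 488 of all probe sets called in EGFR gain, EGFR loss and BMP loss; the filter on dim probe sets called 2, 3, 2 (614, 752 and 534 of all) and, for EGFR gain against EGFR loss, 1. Quantile normalization called 0 in EGFR loss and 2 in BMP loss, median centring 2 in EGFR loss, array weights 2 in BMP loss, and 1 probe set per gene 2 in EGFR loss and 2 in BMP loss. The 10 differences called under at least 1 setting belonged to RpS18, RpS29, RpL23, RpS21 and RpS10a. With single arrays left out the number ran from 0 to 1 in EGFR gain, 0 to 2 in EGFR loss, 0 to 1 in BMP loss and 0 to 1 between EGFR gain and EGFR loss, and was 0 throughout in BMP gain, in the other comparisons among perturbations and for the difference of the BMP responses. With EGFR gain replicates 1 and 3 left out together, a setting chosen after seeing the data, 0 were called in EGFR gain. The cause was not tested.

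The replicate numbers do not pair the samples, since deviations of same-numbered arrays correlated by -0.02 to 0.09 over 21 pairs and those of other pairs by -0.10 to 0.06. A replicate block called 0 members in EGFR gain and 0 in EGFR loss, with 241 and 251 of all probe sets called and RpS18 at adjusted p of 0.0616 and 0.088, and still 1 in BMP loss.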
